A study of Glycine max with 44 samples.

Results

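Roots of the soybean genotype PI416937, classed in the labels as tolerant of aluminium, were compared after 2 h with 10 µM aluminium (Al) and after 2 h without added Al. The comparison rests on 4 of the 44 arrays of the series, 2 with Al and 2 untreated, chosen by their titles and not by any measured value. Each array holds RNA from the 1-cm tip of the tap root of plants in hydroponic culture, in a chamber with 16 h of light a day. The series also holds the Al-sensitive genotype Young, with 2 Al and 2 untreated arrays at 2 h, and both genotypes at 12, 48 and 72 h with 3 arrays a group, which makes 16 groups in all. All 44 arrays share the culture system. The labels name no mutant or transgene, and they say neither how many plants entered a sample nor whether the 2 arrays of a group came from separate cultures, so p-values measure only the spread between these samples.

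In acid soil Al enters the root as a charged ion, binds cell walls and membranes of the tip and stops elongation within hours. Tolerant plants are known to release organic acids such as citrate and malate that bind Al outside the cell, and in Arabidopsis the zinc finger factor STOP1 switches on the transporters for this release. Isocitrate lyase and malate synthase are the enzymes particular to the glyoxylate cycle, by which germinating seeds of oil crops turn stored fat into sugar. Aquaporins of the PIP class carry water through the plasma membrane.

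Levels are given as log2(intensity + 16), so a difference of 1 is a doubling for bright probe sets and understates the change of dim ones. The background level was 4.41, the 95th percentile of probe sets for an oomycete and a nematode that share the array. Of 37593 soybean probe sets, 35289 passed it in at least 1 of the 16 groups and were tested, 8418 of them with a single annotated gene. A difference is followed by its standard error from a limma fit over all 44 arrays and by a p-value adjusted over all tested probe sets, and probe sets below an adjusted p of 0.05 are said to be called. Where the lower group lay at or below background, a difference is given as "at least" the distance to background.

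The 4 arrays were not equally alike. The untreated arrays correlated at 0.9578 over the tested probe sets and differed by more than 1 on 4654 of them, while the Al arrays correlated at 0.9783 and differed by more than 1 on 2026. Untreated array 1 lay as close to Al array 1 (0.9778) as the Al arrays to each other, and the lowest correlation was that of untreated array 2 with Al array 2 (0.944). Among all 44 arrays, untreated array 2 and Al array 2 had the 4th and 5th lowest mean correlation with the others (0.9383 and 0.9399). The 3′ minus 5′ signal of a soybean actin control, a sign of RNA integrity, was 0.69 and 1.58 in the untreated arrays and 0.97 and 0.82 in the Al arrays. Another actin control gave 7.73 and 7.82 against 7.48 and 7.75, and a P450 control 2.21 and 3.05 against 2.05 and 2.12. Untreated array 2 was the highest of the 4 in each, though by little in the second. A ubiquitin control lay between 0.015 and 0.016 in all 4. The part of these array differences in the results was not tested.

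With Al for 2 h, 319 probe sets were called higher and 38 lower, which is 0.904% and 0.108% of those tested. The higher side held 96 probe sets with an annotated gene and the lower side 11. Differences reached 1 or more in 212 of the 357. Among the 319, 108 differed by 1 to 2, 53 by 2 to 3 and 37 by more than 3, with a median of 1.33, and the 38 had a median of -0.80. Both Al arrays lay above both untreated arrays for 318 of the 319 and below them for all 38, and over everything tested the groups failed to overlap in these ways on 15.4% and 18.6% of probe sets. Of the 319, 78 had an untreated mean at or below background. Al array 2 was the higher of the Al arrays for 245 of the 319, by a median of 0.56, against a median of -0.00053 over all tested probe sets.

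The calls lean on the spread pooled over all 16 groups. Fitted on the 4 arrays alone, no probe set was called by limma, with 1719 at an unadjusted p under 0.05 against 3604 in the fit over all arrays. Left out singly, untreated array 1 gave 717 calls (340 higher, 377 lower), untreated array 2 gave 273 (206 and 67), Al array 1 gave 893 (731 and 162) and Al array 2 gave 184 (173 and 11). Every one of the 357 kept its sign in these 5 fits. For the 318 higher and 38 lower probe sets without overlap this had to be so, since leaving out 1 array cannot turn such a difference.

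**Figure D1:**
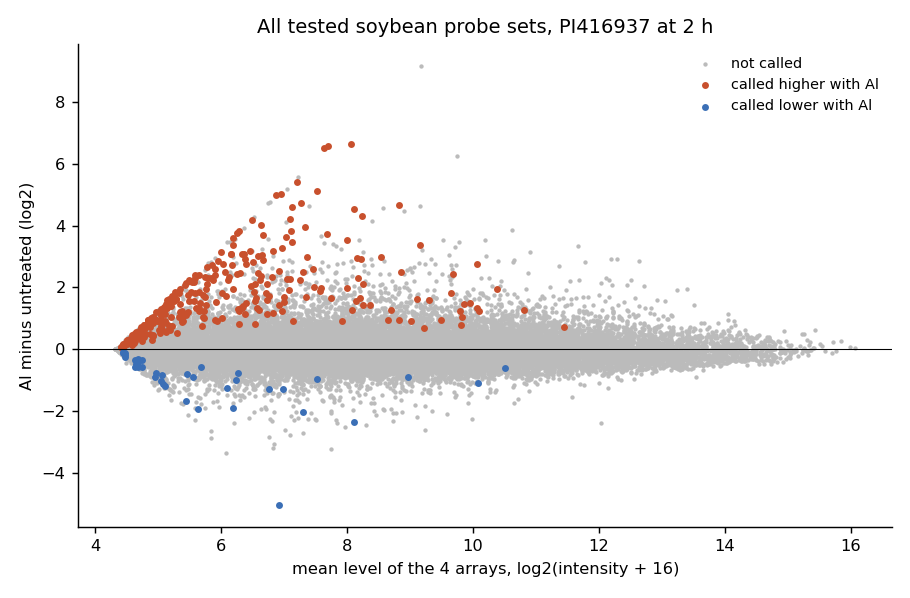
Each point is 1 of the 35289 tested soybean probe sets, with the mean of the 4 arrays on the horizontal axis and Al minus untreated on the vertical axis, both in log2 units. The 319 called higher (red) outnumber the 38 called lower (blue), and many of the red points lie on the left diagonal edge, where the untreated level is at background.

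The list of glyoxylate cycle and fatty acid breakdown genes matched only 2 genes, MS and ICL1, both of the glyoxylate cycle. All 3 tested probe sets of this list were called higher, beside 0.904% of all tested probe sets. Their median difference was 3.76, against -0.0025 over all tested probe sets. MS, malate synthase, read 5.57 and 4.39 in the untreated arrays and 10.03 and 10.14 in the Al arrays. It rose by 5.11 ± 1.07 (adjusted p = 0.00808). Untreated array 2 was at background and untreated array 1 above it, and the Al arrays were alike.

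ICL1, isocitrate lyase, read 4.94 and 4.81 untreated and 8.45 and 7.63 with Al, a rise of 3.17 ± 0.63 (adjusted p = 0.00529). Its other probe set read 4.37 in both untreated arrays and 8.64 and 7.61 with Al (adjusted p = 0.00663). Both probe sets thus separated the groups without overlap, with Al array 1 the higher. The MS call was lost without untreated array 2 (difference 4.52, adjusted p = 0.124) or Al array 2 (5.06, adjusted p = 0.103), and the ICL1 call without untreated array 2 (3.104, adjusted p = 0.0579) or Al array 1 (2.75, adjusted p = 0.0531). The list of 3 probe sets had 0 calls without untreated array 2 and 1 without Al array 1.

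Among the other 40 arrays these genes were high in a few arrays. MS reached 9.07 in 1 Al array of Young at 72 h and 8.44 in untreated array 1 of PI416937 at 12 h, where ICL1 read 8.998. No other array reached the lower Al array of 2 h for MS, and that single untreated array did so for ICL1. In Young at 2 h, ICL1 read 4.92 and 5.103 untreated and 4.88 and 4.895 with Al.

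BMY2 and CIF1, named from different parts of the rule, were also called higher. BMY2, a β-amylase, which releases maltose from starch, read 5.21 and 6.09 untreated and 8.68 and 7.68 with Al, a rise of 2.53 ± 0.62 (adjusted p = 0.0333). CIF1, an inhibitor of cell wall invertase, read 6.19 and 7.18 untreated and 9.67 and 9.61 with Al and rose by 2.95 ± 0.69 (adjusted p = 0.0223). Of the 2 tested CIF1 probe sets, 1 was called. In both genes the groups were apart by more than the distance between the arrays of either group. BMY2 was called in none of the 4 fits without 1 array (differences 2.03 to 3.04, the smallest adjusted p 0.057 without untreated array 2), and CIF1 was not called without untreated array 1 (2.46), Al array 1 (2.92) or Al array 2 (2.98).

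The BMY2 probe sets not called ran the same way, at differences of 2.42 and 2.16 (adjusted p = 0.054 and 0.137). Sugar transporters and genes of asparagine and ureide metabolism, 14 probe sets of 9 genes, gave no call and a median of 0.43. SWEET17, a sugar transporter, read 5.86, 6.96, 7.49 and 8.38 in the order untreated 1, untreated 2, Al 1, Al 2 (adjusted p = 0.429), an order kept wherever 4 values follow. AS2, an asparagine synthetase, read 10.83, 10.97, 11.75 and 13.45 (adjusted p = 0.464), so that Al array 2 alone stood well above the untreated pair.

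PIP2-8, a plasma membrane aquaporin, had the smallest adjusted p of all named genes. It read 4.38 and 4.36 untreated, both at background, and 7.21 and 9.17 with Al, a rise of at least 3.77 (fitted 3.82 ± 0.27, adjusted p = 1.62e-11). The Al arrays were well apart from each other but both far above the untreated arrays, and the call held in each of the 4 fits without 1 array. In the other 40 arrays PIP2-8 never passed 4.85, reached in untreated array 1 of Young at 2 h.

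A further PIP2-8 probe set that may read related transcripts gave 4.93, 6.41, 6.62 and 7.39, a rise of 1.33 ± 0.27 (adjusted p = 0.00594). Here untreated array 2 lay close under Al array 1, and without untreated array 1 or Al array 2 the aquaporin list had 1 call. These were the 2 calls, both higher, among 43 aquaporin probe sets of 22 genes (0.904% over all tested), whose median difference was 0.12. PIP2-1, another member of the family, read 8.15, 8.37, 7.03 and 7.44, lower in both Al arrays and not called (adjusted p = 0.519).

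**Figure D2:**
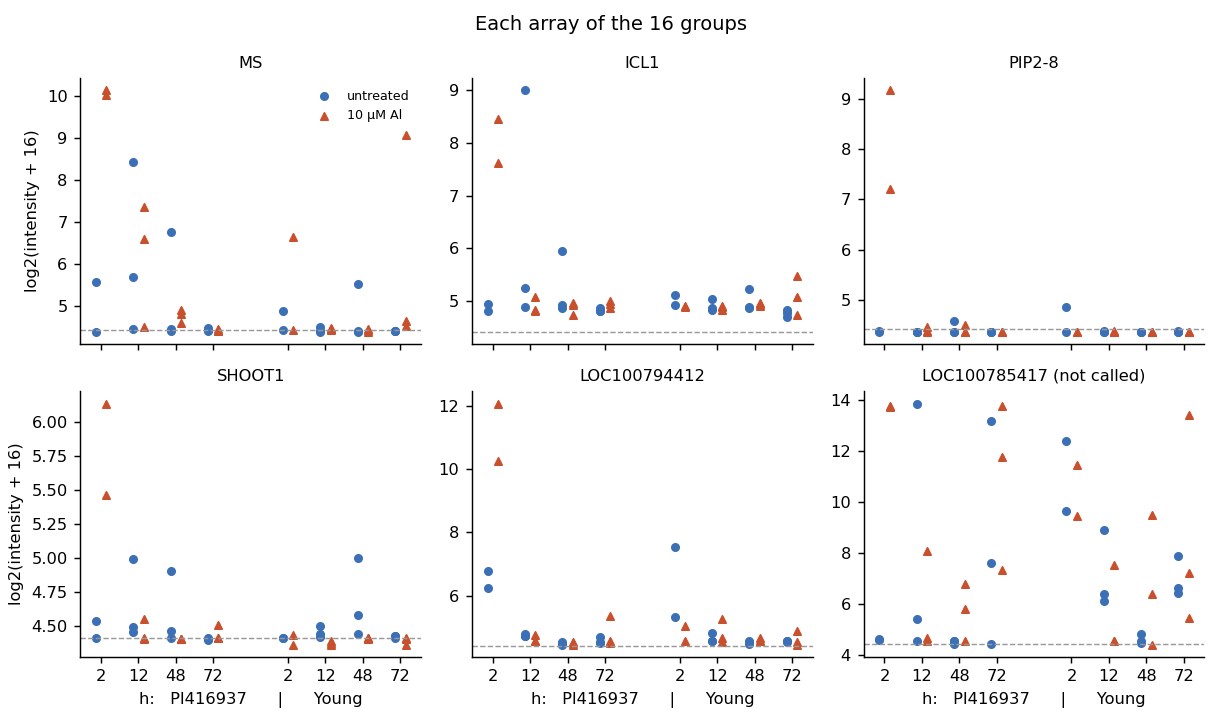
Each point is 1 array, with time in hours on the horizontal axis (PI416937 left, Young right) and the level as log2(intensity + 16) on the vertical axis, whose range differs between panels; the dashed line is background. MS, ICL1, PIP2-8, SHOOT1 and LOC100794412 are high in the Al arrays of PI416937 at 2 h, MS and ICL1 also in single arrays elsewhere, and LOC100785417, which was not called, is high in many arrays.

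MYB factors, a large family of DNA-binding proteins, gave 7 calls among 98 probe sets of 65 genes, all higher, beside 0.904% called higher over all tested, with a list median of 0.19. MYB118 read 6.04 and 6.88 untreated and 8.03 and 8.95 with Al, a rise of 2.03 ± 0.42 (adjusted p = 0.00695). MYB109 read 5.48 and 4.96 untreated and 6.59 and 7.28 with Al and rose by 1.71 ± 0.31 (adjusted p = 0.00217). Al array 2 was the higher of the pair in both genes, and neither untreated array of PI416937 at 2 h reached the lower Al value. In Young at 2 h, MYB118 read 8.15 and 7.86 untreated and 8.12 and 7.17 with Al. Untreated Young was thus about as high as the lower Al array of PI416937. MYB109 read 5.57 and 5.82 untreated and 5.698 and 5.65 with Al in Young.

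The remaining named MYB genes moved little. MYB120 read 4.52, 4.61, 5.05 and 4.92 and rose by 0.42 ± 0.085 (adjusted p = 0.00692). MYB172 read 4.37, 4.36, 4.51 and 4.39, a rise of at least 0.035 (adjusted p = 0.0214) with Al array 1 alone above background. In the other 40 arrays MYB172 never passed 4.38. It was tested only because its mean in the Al group of 2 h passed background. Its low level elsewhere therefore follows from the filter, and its call is still counted in the list. The other called members were MYB173 at 1.98 ± 0.49, LCL3 at 1.204 ± 0.301 and MYB149 at 0.49 ± 0.12.

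The MYB calls depended on single arrays. The list kept 3 calls without untreated array 1, 3 without untreated array 2 and 2 without Al array 2, and had 11 without Al array 1. MYB109 lost its call without untreated array 2 (1.45) or Al array 2 (1.37), MYB118 without untreated array 1 (1.61) or Al array 2 (1.56), MYB120 without untreated array 1 (0.37) or Al array 1 (0.35), and MYB172 without any array but Al array 2 (0.027 to 0.086).

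LCL3, also named GmLHY2a, belongs to the LHY and CCA1 group of MYB-related clock factors, and clock and light reception genes were therefore looked at as a list chosen after values were seen. Of its 17 tested probe sets of 12 genes, 2 were called, both higher (0.904% over all tested), and the median was 0.60. LCL3, whose call led to the list, is 1 of these 2, so the count follows in part from that choice. LCL3 read 4.49 and 5 untreated and 5.11 and 6.79 with Al (adjusted p = 0.0411), where Al array 1 passed untreated array 2 by 0.11. LOC100797839, a cryptochrome by its synonym GmCRY1b1, read 4.42 and 4.41 untreated and 4.76 and 5.55 with Al, a rise of 0.74 ± 0.13 (adjusted p = 0.00192).

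LHY itself was not called. It read 6.97 in untreated array 1 and 8.91, 8.74 and 8.96 in the other 3 (adjusted p = 0.656), so untreated array 1 alone was low. Its other probe set read 6.78, 8.16, 9.25 and 9.33 (adjusted p = 0.325). COL10, a CONSTANS-like factor, read 10.21, 10.699, 11.75 and 11.92 (adjusted p = 0.142), and ZTL1, a clock-linked F-box protein, 9.4, 10.01, 9.46 and 9.602. The labels give no clock time for the harvest of these 4 samples, and its part in the result was not tested. The list had 4 calls without Al array 1, 1 without untreated array 2 and 0 without Al array 2.

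GBF2, a bZIP protein that binds the G-box, read 5.996 and 6.23 untreated and 6.74 and 7.15 with Al and rose by 0.83 ± 0.2 (adjusted p = 0.0295), the single call among 103 bZIP probe sets of 67 genes (0.904% of all tested were called higher), whose median was 0.044. EXP2, an expansin, one of the proteins that loosen growing cell walls, read 4.38 and 4.38 untreated, both at background, and 4.83 and 5.798 with Al, a rise of at least 0.899 (adjusted p = 0.013).

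The brighter EXP2 probe sets were higher in both Al arrays without a call. They read 7.79, 7.47, 9.26 and 9.61 in one (adjusted p = 0.0931) and 8.02, 9.24, 9.71 and 10.15 in the other (adjusted p = 0.328). EXP2 held the single call of the cell wall list, 7 probe sets of 5 genes with a median of 0.50, and of the 9 root marker probe sets, where it is listed too. Over all tested probe sets 0.904% were called higher. Its call was lost without untreated array 2 (0.93) or Al array 2 (0.45), and that of GBF2 without untreated array 1 (0.71), untreated array 2 (0.95) or Al array 2 (0.63).

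Among the genes with symbols that no list held, 4 called higher are given here, chosen after their values were seen. No results without 1 array are given for them. COR1 read 5.26 and 4.72 untreated and 6.66 and 7.82 with Al, a rise of 2.25 ± 0.33 (adjusted p = 0.000109). Of the 3 tested COR1 probe sets, 1 was called. SHOOT1 read 4.41 and 4.54 untreated and 5.47 and 6.14 with Al and rose by 1.33 ± 0.16 (adjusted p = 3.03e-06). SHOOT1 had 1 of its 2 tested probe sets called, and this probe set never passed 5.001 in the other 40 arrays.

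HPPD, the dioxygenase that makes homogentisate in tyrosine breakdown and in tocopherol and plastoquinone synthesis, read 6.41, 5.43, 8.43 and 7.92 and rose by 2.26 ± 0.57 (adjusted p = 0.0461). It had 1 of its 3 tested probe sets called. CGS2, a cystathionine γ-synthase of the methionine pathway, read 8.55, 8.57, 9.42 and 9.53, a rise of 0.91 ± 0.19 (adjusted p = 0.00837). CGS2 was bright in all 4 arrays and had 2 of its 4 tested probe sets called higher, and the arrays within each group were nearly alike.

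Most of the highest differences belonged to genes known here only by a locus number, for which no role is given. LOC100804226 read 4.39 and 4.41 untreated, at background, and 8.68 and 13.29 with Al. It rose by at least 6.57 (fitted 6.58 ± 1.23, adjusted p = 0.00244). The Al arrays differed strongly from each other, and without Al array 2 the gene was not called (difference 4.28, adjusted p = 0.325).

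LOC100794412 read 6.24 and 6.76 untreated and 12.08 and 10.25 with Al, a rise of 4.66 ± 0.42 (adjusted p = 1.06e-08). Its highest value in the other 40 arrays was 7.54, in untreated array 1 of Young at 2 h. Behind the Al group of PI416937 at 2 h, the next highest of the 16 group means were those of the untreated arrays at 2 h, in PI416937 and then in Young.

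LOC732650 read 5.603 and 4.39 untreated and 9.46 and 8.94 with Al and rose by 4.202 ± 0.58 (adjusted p = 3.05e-05), with 1 of its 2 tested probe sets called. LOC100305807 read 5.37 and 5.33 untreated and 9.74 and 8.9 with Al and rose by 3.97 ± 0.7 (adjusted p = 0.00132). LOC100815185 read 4.45 and 4.81 untreated but 5.78 and 11.51 with Al (4.02 ± 0.77, adjusted p = 0.00314). The Al arrays were less than 1 apart in the first 2 genes and far apart in the third, where the difference fell to 1.15 without Al array 2 and rose to 6.88 without Al array 1.

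LOC100793096 read 5.99, 4.46, 8.76 and 8.93 (3.62 ± 0.59, adjusted p = 0.000415). LOC100305692 read 4.51, 4.52, 7.29 and 8.47 (3.37 ± 0.39, adjusted p = 1.99e-06). These 2 genes, with LOC100794412, LOC732650, LOC100815185, LOC100305807 and PIP2-8, stayed called in each of the 4 fits without 1 array.

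LOC100809945 read 5.08, 4.54, 7.67 and 8.13 (3.09 ± 0.58, adjusted p = 0.00245). LOC100306662 read 5.73, 4.54, 8.43 and 7.91 (3.04 ± 0.68, adjusted p = 0.0151). Both separated the groups by more than 2 at the narrowest point. The first lost its call without untreated array 2 (2.82) or Al array 2 (2.86), the second without untreated array 2 (2.44), Al array 1 (2.78) or Al array 2 (3.296).

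LOC100779901 read 4.43 and 4.44 untreated and 10.33 and 8.598 with Al (5.03 ± 1.22, adjusted p = 0.0316). LOC100305932 read 4.88 and 4.94 untreated and 9.74 and 9.51 with Al (4.71 ± 1.19, adjusted p = 0.0438), with 1 of its 2 tested probe sets called. Although the 2 groups were more than 4 apart in each, neither was called in any fit without 1 array (4.17 to 5.898 and 4.601 to 4.83), and both varied widely in the other 40 arrays, from 4.39 to 9.14 and from 4.34 to 11.095.

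Of the probe sets with no annotated gene, the 3 highest are given by their IDs. GmaAffx.87317.1.S1_s_at read 4.37, 4.397, 8.56 and 13.22, a rise of at least 6.47 (adjusted p = 0.00244). Gma.12567.1.S1_at read 4.62, 4.38, 8.35 and 11.45 (5.399 ± 0.41, adjusted p = 1.18e-10). Gma.4152.1.S1_at read 4.37, 4.37, 9.201 and 9.54, a rise of at least 4.95 (adjusted p = 0.00614). The first followed LOC100804226 closely in each of the 4 arrays and likewise lost its call without Al array 2 (4.17), the second stayed called in all 4 fits without 1 array and never passed 4.83 elsewhere, and the third lost its call without untreated array 2 (4.995) or Al array 2 (4.83).

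**Figure D3:**
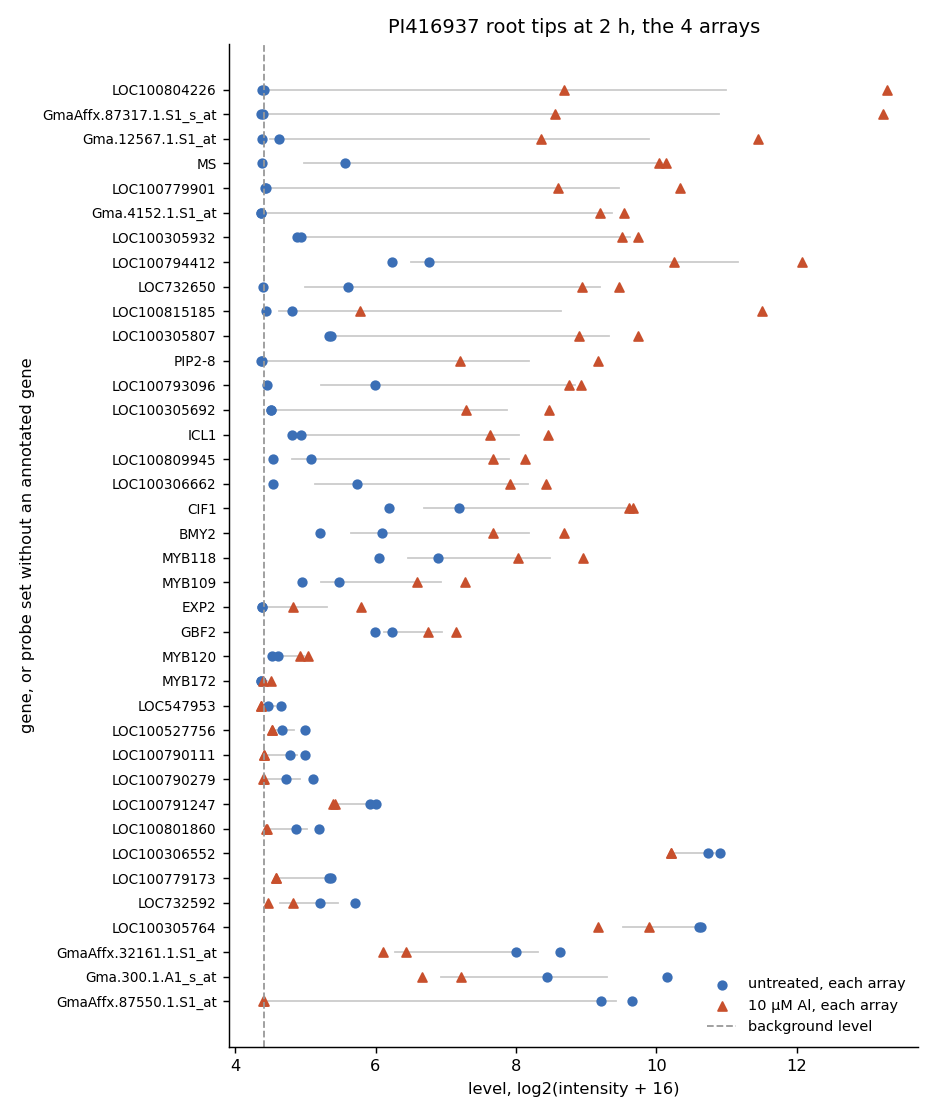
Each row is 1 of the 38 called genes or probe sets named by the rule, ordered by difference, with the level as log2(intensity + 16) on the horizontal axis. Circles are the 2 untreated arrays, triangles the 2 Al arrays and grey lines join the group means; the groups do not overlap in any row, and many untreated circles on the higher side lie on the dashed background line.

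The lower side was smaller in number and size. The lowest difference was that of GmaAffx.87550.1.S1_at, with no annotated gene, which read 9.65 and 9.21 untreated and 4.39 and 4.42 with Al. The fitted difference was -5.02 ± 0.88 (adjusted p = 0.00118), a fall to background of at least 5.01. It stayed called in all 4 fits without 1 array, and 29 of the other 40 arrays also lay at or below the higher of the Al values. The untreated 2 h group had the highest of the 16 means.

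Gma.300.1.A1_s_at read 10.14, 8.44, 6.66 and 7.21 (-2.36 ± 0.495, adjusted p = 0.00846). GmaAffx.32161.1.S1_at read 8.63, 7.99, 6.11 and 6.44 (-2.04 ± 0.39, adjusted p = 0.00349). In both, only 3 of the other 40 arrays lay as low as the higher Al array. The first lost its call without untreated array 1 (-1.51) or Al array 1 (-2.08), the second without untreated array 1 (-1.72).

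Among genes, 2 that fell were bright in every array. LOC100305764 read 10.604 and 10.64 untreated and 9.895 and 9.17 with Al (-1.09 ± 0.26, adjusted p = 0.0244). LOC100306552 read 10.899 and 10.74 untreated and 10.201 and 10.21 with Al (-0.61 ± 0.14, adjusted p = 0.0193), with 1 of its 3 tested probe sets called. Each had its lowest of the 16 group means with Al at 2 h, at 9.53 and 10.204. The next lowest mean of the first was 9.83, in untreated Young at 12 h. That of the second was 10.24, in Young with Al at 2 h, so its low level was nearly shared there. The first lost its call without untreated array 1 (-1.11), untreated array 2 (-1.07) or Al array 2 (-0.73), the second without untreated array 1 (-0.53), Al array 1 (-0.61) or Al array 2 (-0.62).

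The other named genes called lower were dim. LOC732592 read 5.22, 5.71, 4.82 and 4.47 (adjusted p = 0.000903). LOC100779173 read 5.37, 5.34, 4.58 and 4.58 (adjusted p = 0.0193). LOC100801860 read 4.86, 5.198, 4.45 and 4.45 (adjusted p = 2.95e-05). All 3 were higher in the untreated arrays of 2 h than in any other of the 16 group means. LOC732592 had 1 of its 3 tested probe sets called, and LOC100779173 had 1 of its 2.

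LOC100791247 read 5.92, 6.01, 5.43 and 5.39 (adjusted p = 0.0342). LOC100790279 read 4.73, 5.11, 4.399 and 4.41, and LOC100790111 read 4.78, 4.995, 4.42 and 4.41 (adjusted p = 0.0144 and 0.00037). LOC100527756 read 4.67, 4.997, 4.52 and 4.52 (adjusted p = 0.0325). LOC100791247 fell by 0.56 and stayed above background in the Al arrays, and LOC100527756 fell by 0.31 to a level close to it. LOC100790279 and LOC100790111 fell to background, by at least 0.505 and 0.471. LOC100790279 had 1 of its 3 tested probe sets called.

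LOC547953, a cytosolic glutamine synthetase by its synonym GS1beta2, which builds glutamine from ammonium, read 4.47, 4.66, 4.37 and 4.37, a fall to background of at least 0.15 (adjusted p = 0.0244). Of its 3 tested probe sets, 1 was called. Of the 8 dim genes, LOC100801860 and LOC100790111 stayed called in all 4 fits without 1 array, and each of the others lost its call without untreated array 2 (-0.57 for LOC732592, -0.79 for LOC100779173, -0.51 for LOC100791247, -0.33 for LOC100790279, -0.15 for LOC100527756 and -0.101 for LOC547953) and also without Al array 2 (-0.64, -0.77, -0.54, -0.52, -0.31 and -0.196 in the same order). Without Al array 1 the calls of LOC100779173, LOC100791247, LOC100527756 and LOC547953 were lost too (-0.77, -0.57, -0.31 and -0.197), and without untreated array 1 those of LOC100779173 and LOC100791247 (-0.76 and -0.602).

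Gene families often discussed under Al gave no call at 2 h, beside 1.01% of all tested probe sets. Of the 12 probe sets for Al tolerance and organic acid genes, 7 genes in all, 0 were called and the median was -0.25. STOP1 read 9.44, 9.39, 9.93 and 10.13, higher in both Al arrays by 0.62 ± 0.26 on average without a call (adjusted p = 0.356). MDH-1, a malate dehydrogenase, read 11.92, 12.04, 11.73 and 11.06 (adjusted p = 0.535), with Al array 2 the lowest. The probe sets of the phosphoenolpyruvate carboxylases, which feed malate synthesis, lay between -0.39 and 0.13.

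WRKY factors (104 probe sets, median 0.0098), NAC factors (40, median 0.26), AP2/ERF factors (20, median 0.29) and heat shock factors (15, median -0.0087) had 0 calls. So did glutathione S-transferases (58, median -0.032), cytochromes P450 (51, median -0.032), phenylpropanoid and isoflavonoid genes (50, median -0.035), jasmonate and lipoxygenase genes (35, median -0.055), pathogenesis-related genes (7, median -0.59), ethylene genes (6, median -0.25) and abscisic acid and dehydration genes (4, median 0.53). On the higher side, the WRKY list had 1 call, the NAC list 1 and the phenylpropanoid list 2 without Al array 2, and the NAC list had 1, the P450 list 2 and the abscisic acid list 1 without Al array 1. A missing call with 2 arrays a side does not show that these families were unchanged.

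Heat shock proteins and chaperones had the lowest median of the lists, -0.65 over 18 probe sets of 6 genes, with 0 calls, and 10 of the 18 were lower in both Al arrays than in both untreated arrays, as were 18.6% of all tested probe sets. HSP90A1, a chaperone of the HSP90 class, read 10.85, 8.67, 7.45 and 7.92 (adjusted p = 0.504). HSP23.9, a small heat shock protein, read 11.34, 10.02, 8.98 and 9.53 (adjusted p = 0.619). In both, untreated array 1 stood above the other 3 arrays, and untreated array 2 lay nearer to the Al arrays than to its partner.

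**Figure D4:**
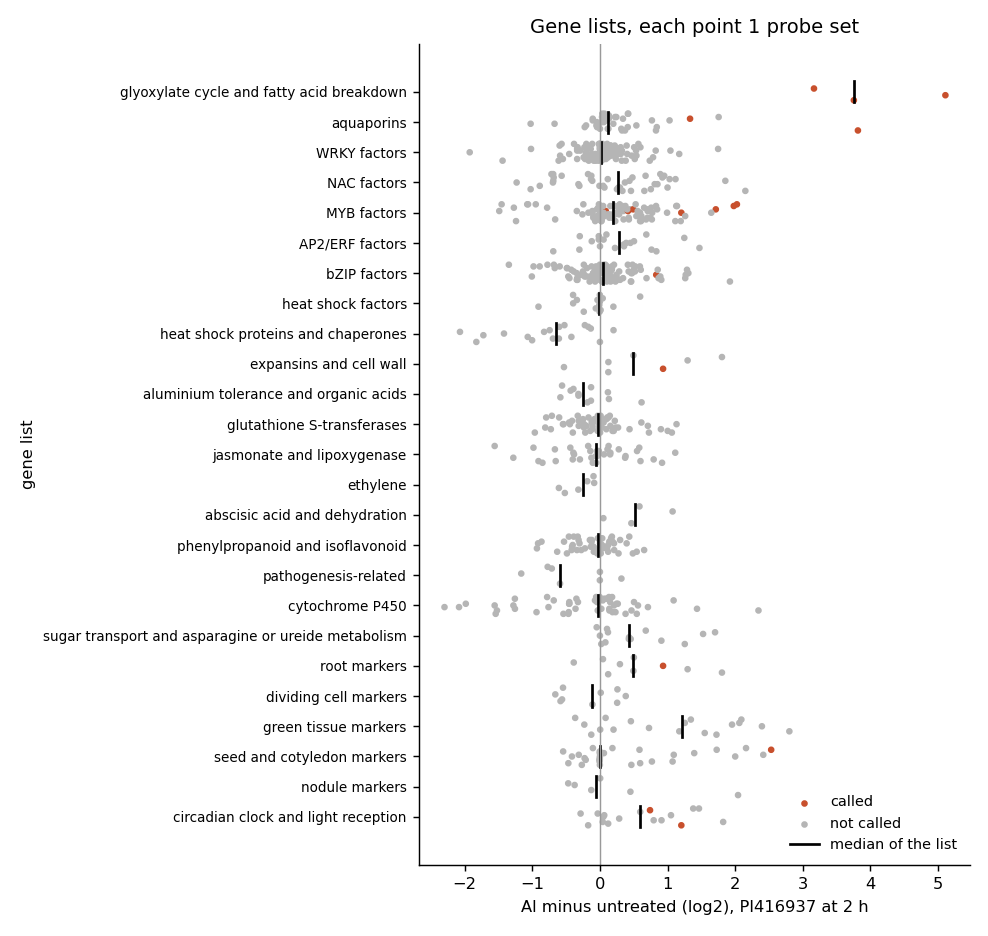
Each point is 1 tested probe set of a gene list, with Al minus untreated in log2 units on the horizontal axis, red where called, and a black bar at the median of the list. The glyoxylate list alone has a median above 3; green tissue markers have the next highest median and no call.

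Marker genes of other tissues were read beside these results. Green tissue markers, genes of photosynthesis such as CAB3, PSAD and the rubisco activases, had 0 calls among 18 probe sets of 7 genes but a median of 1.21, and 14 of the 18 were higher in both Al arrays than in both untreated arrays, as were 15.4% of all tested probe sets. Without Al array 1 the list had 1 call on the higher side. Their mean level was 6.57 and 6.21 in the untreated arrays and 7.19 and 7.72 in the Al arrays, and their summed intensity 11260 and 14760 against 14020 and 13560. RCA14 read 4.51, 5.16, 6.93 and 8.34 (adjusted p = 0.369). The means of the groups did not overlap while the sums, set mainly by 1 bright PSAD probe set, did.

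Seed and cotyledon markers, 30 probe sets of 16 genes, had a median of -0.00068 and the single call of BMY2, beside 0.904% called higher over all tested. Their summed intensities were 54050 and 80680 untreated and 95550 and 53640 with Al. LOC547684, on that list, read 9.898, 10.57, 11.95 and 11.98 and missed the call (adjusted p = 0.0791). The sums overlapped between the groups. Dividing cell markers (9 probe sets, 0 called, median -0.11, sums 65440 and 64290 against 66140 and 69570) were nearly level, and root markers summed to 126000 and 96490 against 132100 and 131800.

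Nodule markers, 6 probe sets with 0 calls and a median of -0.062, summed to 3253 and 3536 untreated against 14970 and 12490 with Al. That difference came from NOD33, which read 11.64, 11.74, 13.86 and 13.602 (adjusted p = 0.443), while the early nodulins ENOD93, ENOD55-2 and ENOD40B read between 4.39 and 6.62 over the 4 arrays. In a root tip, fewer cells of a type and less RNA per cell cannot be told apart. The part of these markers in the calls was not tested.

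The 2 h response of PI416937 was then set beside the other comparisons of the series that share none of its arrays. Young at 2 h had 37 probe sets called, 0.105% of those tested. Higher calls in Young made up 0.0482%. A single probe set was called higher in both genotypes, 0.313% of the 319 and 5.88% of the 17 higher in Young. It was GmaAffx.86509.1.S1_at, which has no annotated gene, named after its values were seen, with differences of 0.83 in PI416937 and 0.72 in Young. A further 2 were called in opposite directions, GmaAffx.91199.1.S1_at at 0.69 in PI416937 and -0.93 in Young, and GmaAffx.93527.1.S1_at at -1.67 and 1.75. Over the 319, the median difference in Young was -0.0014.

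In PI416937 itself, 1 probe set was called at 12 h (0.00283%), 1425 at 48 h (4.04%) and 14 at 72 h (0.0397%). Of the 319, 4 were called higher (3.39% of all tested) and 4 lower (0.652%) at 48 h, 1 was higher at 72 h and 0 at 12 h. The medians of the 319 were -0.0052, -0.0026 and 0.00019 at 12, 48 and 72 h. LOC780539, chosen after values were seen, is one that rose at both times. It read 4.77, 5.95, 7.04 and 8.61 at 2 h (difference 2.46, adjusted p = 0.0304), and its difference at 48 h was 1.697 (adjusted p = 0.0405).

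The difference in response between the genotypes was tested as an interaction. It was called for 126 probe sets (0.357% of those tested, 105 or 0.298% higher and 21 or 0.0595% lower in PI416937), and 92 of the 319 and 12 of the 38 were among them, a count that draws on the same PI416937 arrays. PIP2-8 differed by 4.06 ± 0.38 (adjusted p = 2.35e-08), with Young at 4.85 and 4.36 untreated and 4.36 and 4.37 with Al. LOC100794412 differed by 6.302 ± 0.6 (adjusted p = 4.4e-08), with Young at 7.54 and 5.32 untreated and 5.03 and 4.55 with Al. Both genes were low in Young with Al and high in PI416937 with Al.

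MS and ICL1 did not pass this test. The MS response differed by 4.22 ± 1.51 (adjusted p = 0.416), where Young read 4.43 and 4.87 untreated and 6.65 and 4.43 with Al, and the ICL1 response by 3.29 ± 0.896 (adjusted p = 0.13). SHOOT1, whose response differed by 1.34 ± 0.23 (adjusted p = 0.00119), and COR1, by 2.94 ± 0.47 (adjusted p = 0.00068), did pass it. For SHOOT1, Young read 4.41 and 4.41 untreated and 4.44 and 4.36 with Al. For COR1, Young read 6.25 and 6.94 untreated and 5.54 and 6.28 with Al, against 5.26 and 4.72 in untreated PI416937. COR1 was thus already high in untreated Young. GmaAffx.87550.1.S1_at ran against its direction in Young, at 6.19 and 4.39 untreated and 10.22 and 6.16 with Al, a difference in response of -7.92 ± 1.24 (adjusted p = 0.000504).

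Against the mean response of PI416937 at 12, 48 and 72 h, the 2 h response differed for 264 probe sets (0.748%, 236 or 0.669% higher and 28 or 0.0793% lower), among them 226 of the 319 and 22 of the 38, again with shared arrays. MS differed by 5.28 ± 1.18 (adjusted p = 0.0201), its later differences being -0.044, -0.44 and -0.017 at 12, 48 and 72 h. ICL1 differed by 3.75 ± 0.7 (adjusted p = 0.00318) and PIP2-8 by 3.81 ± 0.29 (adjusted p = 2.25e-10). The later differences of PIP2-8, 0.037, -0.025 and 0.0002, were all near 0.

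Across the 16 groups, the 2 h Al group of PI416937 had the highest mean for 306 of the 319 (95.9%), beside 9.01% of all tested probe sets. The untreated 2 h group had the lowest for 26 (8.15%), close to the 6.14% over all tested. The 319 and the 38 were called on these 4 arrays, so their ranks and means there are a description and follow in part from that choice. The mean of the 319 was 5.25 and 5.21 in the untreated arrays, inside the range of 5.01 to 5.71 of the other 40 arrays, and 6.47 and 7.17 in the Al arrays. For 164 of the 319 none of the other 40 arrays reached the lower Al array, and for 20 at least 5 did. The mean of the 38 called lower behaved the other way round: it was 6.25 and 6.32 in the untreated arrays, above the range of 5.38 to 5.77 in the other 40, and 5.32 and 5.30 in the Al arrays, just under it. The untreated 2 h group had the highest of the 16 means for 25 of those 38 (65.8%, beside 4.58% of all tested). The Al group had the lowest for 13 (34.2%, beside 10.3%).

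**Figure D5:**
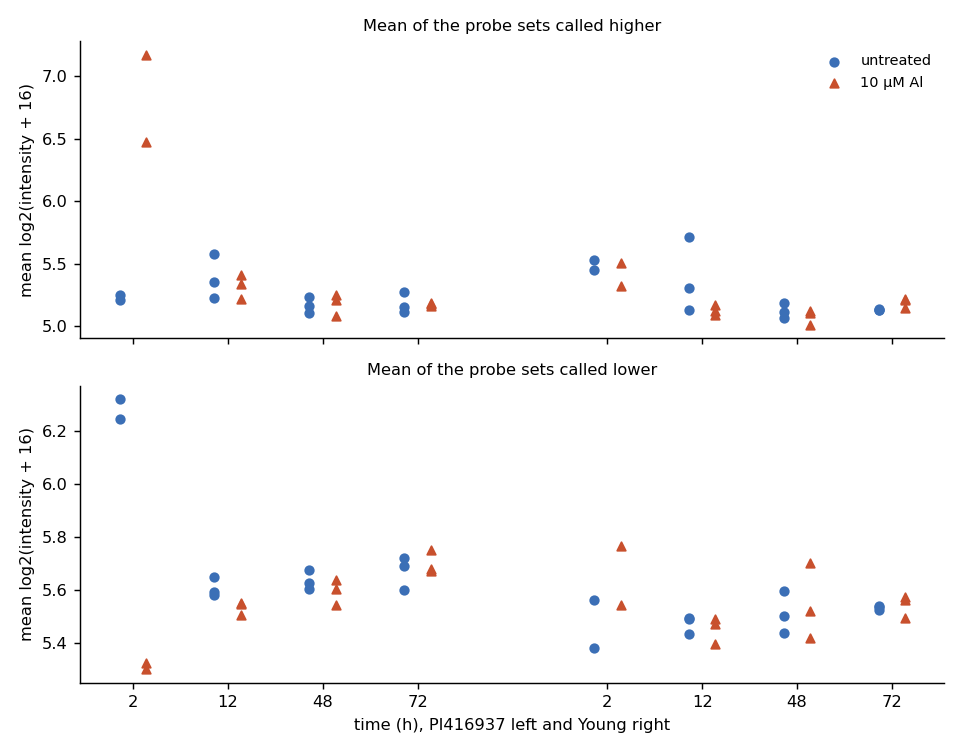
Each point is 1 array, with time in hours on the horizontal axis (PI416937 left, Young right) and the mean log2(intensity + 16) of the 319 probe sets called higher (top) or the 38 called lower (bottom) on the vertical axis. At the top the Al arrays of PI416937 at 2 h, at 6.47 and 7.17, stand above all others; at the bottom the untreated arrays of PI416937 at 2 h, at 6.25 and 6.32, do. The probe sets were chosen on the 4 arrays of PI416937 at 2 h.

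Some of the largest differences did not pass the test. LOC100785417, chosen after its values were seen, had the largest of all tested differences, 9.16 ± 2.52, and an adjusted p of 0.0707. It read 4.57 and 4.62 untreated and 13.73 and 13.77 with Al, so that the arrays of each group were nearly identical. In the other 40 arrays it ranged from 4.395 to 13.86, and in Young at 2 h it read 9.64 and 12.39 untreated and 9.46 and 11.44 with Al.

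LOC100815789, chosen in the same way, read 7.09, 5.51, 11.42 and 10.29 (adjusted p = 0.0677), and 2 of its 3 probe sets were called higher. LOC100803973 read 6.64, 6.02, 10.22 and 10.73 (adjusted p = 0.223). LOC547605 read 5.42, 4.76, 9.502 and 9.91 (adjusted p = 0.232). On the lower side, LOC100500344 read 7.97, 8.66, 5.93 and 5.48 (adjusted p = 0.0877). In each of these genes the arrays of the 2 groups did not overlap, but all were picked for their large differences. Over all tested probe sets, 15.4% had both Al arrays above both untreated arrays and 18.6% had both below.

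Of 23350 probe sets for the oomycete and the nematode, 1332 (5.7%) lay above background in either 2 h group of PI416937, and 14 (0.06%) were called in a fit of their own.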

How the data were processed

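RNA was hybridised to 44 Affymetrix soybean arrays. The authors deposited an intensity on a linear scale per probe set and array; how they summarised, background-corrected and normalised it is not given in the sources used here. Values were taken as log2(intensity + 16). Array medians of the tested probe sets spanned 0.138, and since this was less than 0.2, quantile normalisation was run only as an alternative. The number of arrays, 2 a side, limits the precision. Group means were fitted in limma 3.58.1 (R 4.3.3) over 16 groups, with eBayes and a trend (28 residual and 1.94 prior degrees of freedom), and adjusted by Benjamini-Hochberg within each comparison. The code was tested on simulated data.

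Genes came from the platform annotation, with 8652 of 8677 single-gene probe sets matched to RefSeq (Glycine_max_v4.0, cultivar Williams 82), and lists (19 of genes, 5 of markers, 1 added later) were symbol patterns; an auxin list was not formed, its 2 symbols being ambiguous. Named genes were, among called probe sets with 1 representing probe set a gene, the 15 highest and 10 lowest differences, up to 4 members a list by p, and the 3 highest and 3 lowest without a gene. Members and lists were chosen with earlier results of these data known. No sequences or gene descriptions were used here.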

Additional observations from a re-analysis of the deposited data

Results flagged for a closer look

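The response at 2 h differed between PI416937 and Young, by the limma interaction, for 10 of the 38 named genes and probe sets, beside 0.357% of all tested probe sets. The 38 were chosen on PI416937 arrays that also enter this test, so the count follows in part from that choice. PI416937 minus Young was 6.302 for LOC100794412, 3.95 for LOC732650, 4.399 for LOC100305807, 4.06 for PIP2-8, 4.21 for LOC100305692 and 5.6 for Gma.12567.1.S1_at, where the larger response was that of PI416937. It was -1.11 for LOC100779173, -0.57 for LOC100801860, -7.92 for GmaAffx.87550.1.S1_at and -3.56 for GmaAffx.32161.1.S1_at, where the response of PI416937 was the lower. Adjusted p-values ran from 2.35e-08 for PIP2-8 to 0.0362 for LOC100779173.

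The response of PI416937 at 2 h differed from the mean of its responses at 12, 48 and 72 h for 25 of the 38. Over all tested probe sets 0.748% differed, and the choice of the 38 again shares its arrays with the test. The difference was 6.19 for LOC100804226, 6.12 for GmaAffx.87317.1.S1_s_at, 5.43 for Gma.12567.1.S1_at, 5.28 for MS, 4.86 for Gma.4152.1.S1_at, 4.63 for LOC100794412, 4.57 for LOC732650 and 4.42 for LOC100305807. It was 3.96 for LOC100815185, 3.86 for LOC100793096, 3.81 for PIP2-8, 3.75 for ICL1, 3.37 for LOC100809945, 3.28 for LOC100305692, 3.26 for CIF1, 2.17 for MYB109 and 2.05 for MYB118. On the lower side it was -5.35 for GmaAffx.87550.1.S1_at, -1.15 for LOC100305764, -0.88 for LOC732592, -0.61 for LOC100791247, -0.55 for LOC100801860, -0.52 for LOC100790279, -0.47 for LOC100790111 and -0.36 for LOC100527756.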

How the results depend on the processing

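In the fit on only the compared groups, calls fell to 0 for Al minus untreated at 2 h (0 higher, 0 lower, 0 of the 38 named), to 2 for PI416937 minus Young (1 in each direction) and to 156 higher for the 2 h response against later times. Without the trend, the lower calls of these last comparisons were 11 and 18. Other pseudocounts (1 and 64), no filter, a filter on the 2 h groups, quantile normalisation and robust eBayes kept the counts of these 3 comparisons, in both directions, within 1.5 times. The named calls were less steady. Of the 38, 31 stayed called at pseudocount 1, 34 without the trend and 32 with a block for replicate number. In all planned settings other than leaving out an array and the compared groups alone, 27 stayed called. No named gene turned its direction in any fit, which for the fits without 1 array follows from the lack of overlap between the groups. Leaving out each replicate in turn gave 184 to 893 calls at 2 h (173 to 731 higher, 11 to 377 lower) and kept 16 to 24 of the 38 named, 11 of them in all 4 such fits. For PI416937 minus Young it gave 135 to 574 (103 to 520 higher, 17 to 201 lower), and for 2 h against later times 171 to 661 (163 to 613 higher, 8 to 319 lower). The cause of these shifts was not tested.

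Same-numbered arrays of a genotype and time share a number in their titles, and the labels do not say whether they share more. At 2 h the correlation of their deviations was -0.18 in PI416937 and 0.346 in Young. Over all times and both genotypes it ran from -0.267 to 0.48, and in Young at 2, 12 and 48 h it was always positive (0.241 to 0.48). With the replicate block, 377 probe sets were called (327 higher, 50 lower), 289 of them among the 357. A crossed pairing, added after seeing the data, called 369 (314 higher, 55 lower), and 33 lower for PI416937 minus Young.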
